A study of Mus musculus with 4 samples.

Results

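The layer 6b spots described here are 150 capture spots of mouse brain with the highest level of cortical layer 6b markers. They come out of 10942 spots with at least 500 unique molecular identifiers (UMIs, each standing for 1 captured transcript). A spot qualified with at least 3 UMIs of Slc17a7, the vesicular glutamate transporter of cortical excitatory neurons, and at least 3 UMIs of Ccn2 and Nxph4 together. Of the 354 spots that qualified, the 150 with the highest score were kept, the score being the UMIs of Ccn2, Nxph4 and Cplx3 per 10000 UMIs of the spot. The young vehicle library held 44 of them, the young ethanol library 35, the aged vehicle library 28 and the aged ethanol library 43. The spots were thus chosen by the measured UMIs of those 4 genes, whose values below are a description. Their position in the section was not used. A capture spot is a small area of tissue that can hold several cells of different types.

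Spatial transcriptomes were measured with 10x Genomics Visium slides on coronal brain sections of 10 µm from female wild-type C57BL/6 mice of an aged rodent colony, with 1 library per age and gavage. Young mice were 3 to 4 months old and aged mice 18 to 20 months old, and the sample records give 3 and 18 months. Vehicle mice received water and ethanol mice 3 g/kg ethanol by intragastric gavage on alternate days for 18 days, 10 gavages in all, and tissue was taken 18 h after the last. Left hemispheres were cut at bregma -2.0 to -2.2 mm with the meninges removed, the tissue is labelled hippocampal, and the labels do not say how many mice a section stands for. Where 4 values follow each other, they are those of the young libraries (vehicle, then ethanol) and then of the aged libraries (vehicle, then ethanol).

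Layer 6b is the thin deepest sheet of neocortical neurons, lying between layer 6 and the white matter. Many of its neurons survive from the subplate, an early-born and transient zone of the developing cortex that guides the first thalamic axons. In the adult its excitatory neurons are known for the secreted proteins Ccn2 and the neurexophilins, for complexin Cplx3 and for responses to orexin and other wakefulness transmitters.

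The layer 6b spots had medians of 24140.5, 18220, 15449.5 and 20321 UMIs each and sums of 1069028, 640016, 443124 and 849814 UMIs. In the summed spots 3 UMIs correspond to 2.81, 4.69, 6.77 and 3.53 CPM (a gene's UMIs scaled to the same total of UMIs in every sum), the level that a count of 0 still allows. They made up 1.62% of the young vehicle spots (95% Clopper-Pearson interval 1.18 to 2.17), 1.21% of young ethanol (0.848 to 1.69), 1.04% of aged vehicle (0.689 to 1.49) and 1.63% of aged ethanol (1.18 to 2.19). The rule ranked the spots of all libraries together, so these shares describe its outcome and were not compared between conditions. Intervals here and below cover counting error only, and with 1 library a group they say nothing of the spread between mice.

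Scores ran from 4.48 to 19.3 in young vehicle (median 7.77), from 4.26 to 25 in young ethanol (9.57), from 4.41 to 16.1 in aged vehicle (8.59) and from 4.12 to 29.2 in aged ethanol (8.69). The ranges overlapped almost entirely. The lowest-ranked spot that was kept scored 4.12 and the highest-ranked spot left out scored 4.08, so the edge falls in a continuum of scores. All 3 genes were detected in 90 of the 150 spots, while Nxph4 was at 0 in 60 spots and Cplx3 at 0 in 4, all 4 of them in aged ethanol.

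Ccn2, a secreted matricellular protein also called connective tissue growth factor, lies at chr10:24595442-24598683 (GRCm38), and it reached 383, 566, 354 and 612 CPM in the summed spots. Cplx3, which binds the SNARE complex and regulates vesicle fusion, lies at chr9:57599992-57606281 and reached 394, 341, 402 and 257 CPM. Nxph4, a secreted ligand of neurexins at chr10:127525473-127534559, reached 50.5, 37.5, 65.4 and 41.2 CPM. Ccn2 was higher in both ethanol libraries than in both vehicle libraries, and Cplx3 was lower in both. Of all score UMIs in a library, Ccn2 supplied 46.3% in young vehicle (42.9 to 49.6), 59.9% in young ethanol (55.9 to 63.9), 43.1% in aged vehicle (38.0 to 48.4) and 67.3% in aged ethanol (63.8 to 70.6). Cplx3 supplied 47.6%, 36.1%, 48.9% and 28.2% of the same UMIs. Single spots ran from 0.735 to 20.8 Ccn2 UMIs per 10000, a spread that the intervals leave out. These genes chose the spots, so the mix is a description of what the rule found and was not tested.

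**Figure D1:**
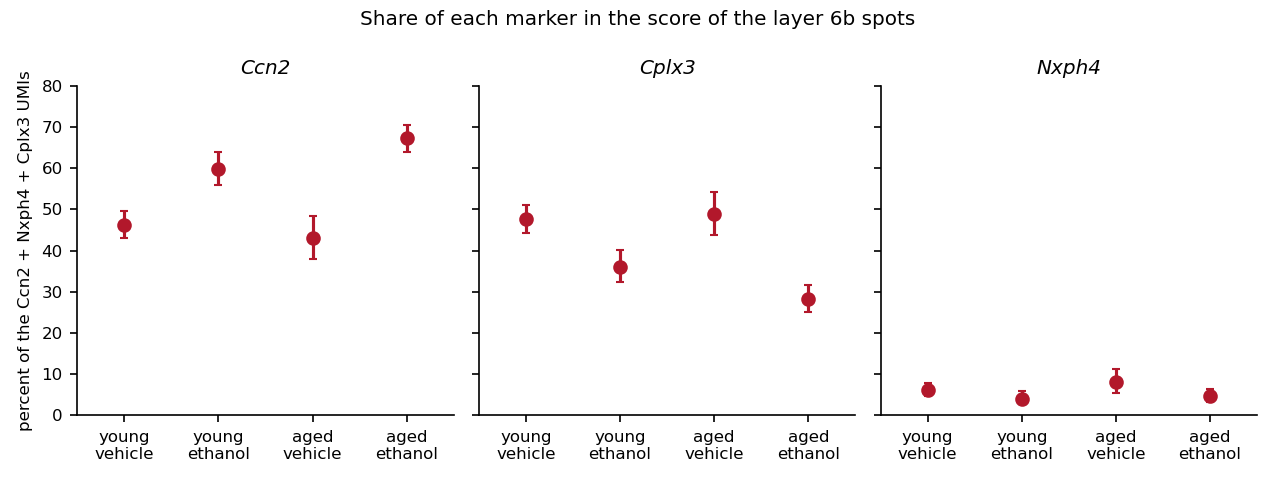
Share of the score UMIs that came from Ccn2, Cplx3 and Nxph4 in the layer 6b spots of each library (y axis, percent of the summed UMIs of the 3 genes; points, libraries; bars, 95% Clopper-Pearson intervals). Ccn2 supplied 59.9% and 67.3% in the ethanol libraries against 46.3% and 43.1% in the vehicle libraries, and Cplx3 ran the other way. These genes chose the spots, so the shares are a description and were not tested.

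RefSeq promoter windows of the GRCm38.p6 assembly were at hand for Cplx3 and for Nr4a2 and Moxd1, both described below, 3 of 6 genes looked up, and the 250 bases before each start are shown because all 3 are markers of these spots. Across single spots Cplx3 and Nr4a2 showed no common pattern, with a Spearman correlation of -0.08 over the 150 spots, given as a description. The windows are chr9:57606282-57606531 on the minus strand for Cplx3, chr2:57124004-57124253 on the minus strand for Nr4a2 and chr10:24223267-24223516 on the plus strand for Moxd1, each written 5′ to 3′ in the direction of its gene. Capitals mark matches to GGGCGG (GC box) or CCAAT on either strand.
Cplx3: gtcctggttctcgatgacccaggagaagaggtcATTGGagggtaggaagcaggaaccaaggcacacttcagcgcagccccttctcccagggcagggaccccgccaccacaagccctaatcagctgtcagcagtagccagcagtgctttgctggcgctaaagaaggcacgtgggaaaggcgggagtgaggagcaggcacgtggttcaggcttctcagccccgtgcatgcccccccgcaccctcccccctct
Nr4a2: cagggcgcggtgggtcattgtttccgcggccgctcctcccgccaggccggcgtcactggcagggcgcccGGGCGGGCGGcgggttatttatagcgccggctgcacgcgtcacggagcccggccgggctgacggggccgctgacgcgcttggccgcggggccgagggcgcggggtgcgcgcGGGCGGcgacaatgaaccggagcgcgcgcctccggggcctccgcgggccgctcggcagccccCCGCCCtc
Moxd1: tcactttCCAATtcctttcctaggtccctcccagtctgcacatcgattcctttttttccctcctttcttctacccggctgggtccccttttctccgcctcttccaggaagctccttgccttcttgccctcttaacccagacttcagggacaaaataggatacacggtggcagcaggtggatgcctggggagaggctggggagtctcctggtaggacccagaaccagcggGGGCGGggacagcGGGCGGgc
Nr4a2 held GC boxes 181, 177, 70 and 8 bases before its start, the first and second overlapping, and Moxd1 held them at 21 and 8 bases, with a CCAAT box at 243. The Cplx3 window held a CCAAT box on the reverse strand 217 bases before the start. Such letters were common, since 32.742% of 32851 RefSeq windows of this length held GGGCGG and 33.85% held CCAAT. A T-box half-site, AGGTGTGA, occurred in 1.12% of windows and the response element AAAGGTCA in 1.336%, and neither was found in the 3 windows on either strand.

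To see what set the spots apart, they were compared with 2 sets of spots in the same libraries. These sets are named for neighbouring tissues, but they were chosen by expression and not by position. Layer 6 spots were the 450 highest for Foxp2, Syt6 and Rprm with under 3 UMIs of Ccn2 and Nxph4 together, 3 in a library for each layer 6b spot there. White matter spots were the 450 highest for a set of myelin genes that included Mbp, Mobp and Mog. Both comparisons used the same layer 6b sums, so their values are set side by side and are not independent. Tbr1, a transcription factor of deep-layer excitatory neurons that the layer 6b rule did not use, was detected in 137 of 150 layer 6b spots, 384 of 450 layer 6 spots and 19 of 450 white matter spots. With at least 3 Tbr1 UMIs the counts were 95, 275 and 1. The layer 6 set thus held spots with little Tbr1, and results that depend on this are given with it below.

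Counts were summed over the spots of each tissue in each library and tested with edgeR's quasi-likelihood test, with the library as a block and p-values adjusted by the Benjamini-Hochberg method over all 10227 genes tested. Against layer 6, 1031 genes passed an adjusted p of 0.05, or 10.1% of those tested, with 573 higher (5.6%) and 458 lower (4.48%) in layer 6b spots. Thus 55.6% of the calls were higher, against 69.2% with DESeq2 and 47.1% of 1210 calls with no filter on low counts. Against white matter, 6189 genes passed (60.5%), 3059 of them higher (29.9%) and 3130 lower (30.6%). The median log2 difference over all genes was -0.01 in both comparisons. Differences are log2 values with a standard error (SE) derived from the edgeR test. With the library as a block, differences in level between the 4 sections were set aside. A single edgeR fit held the layer 6b, layer 6 and white matter sums together. The p-values thus rest on how far the differences among all these tissues varied across the 4 sections. The sections differ in age and gavage, so this spread is not that of replicates.

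Of 10 other layer 6b or subplate markers, 9 had enough counts to be tested. All 9 were higher than in layer 6, against 5.6% of all genes. Their median log2 difference was 1.49, against -0.01 over all genes. Because a filter on low counts favours genes that are high in one tissue, the count describes these 9 genes and not the whole list. The 9 include Moxd1 and Inpp4b, which were low in layer 6 and reached the test largely through the layer 6b sums. Their levels are given as a description with no p. Nxph3, a secreted neurexin ligand at chr11:95509845-95514565, reached 196, 192, 201 and 165 CPM in the layer 6b spots. Layer 6 spots held 45.2, 44.3, 41.4 and 34.8 CPM and white matter spots 4.24, 2.02, 2.00 and 4.17. Every library thus showed the same order, without overlap, and the log2 difference was 2.15 (SE 0.107, edgeR quasi-likelihood adjusted p = 4.92e-13) from layer 6 and 5.45 from white matter (4.01 from white matter with 300 spots in place of 150). Moxd1, a copper monooxygenase of the dopamine beta-hydroxylase family at chr10:24223517-24302783, reached 47.7, 43.7, 38.4 and 21.2 CPM. Layer 6 spots held 12.6, 4.79, 8.37 and 6.57 CPM (log2 difference 2.14, SE 0.234). Aged ethanol had the lowest Moxd1 of the 4 libraries, still above every layer 6 value, and with 300 spots the difference from layer 6 was 1.42.

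Nr4a2, the orphan nuclear receptor Nurr1 at chr2:57106830-57124003, reached 159, 230, 151 and 177 CPM against 82.6, 147, 109 and 99.2 in layer 6. It was higher within each library, by a log2 difference of 0.71 (SE 0.122, edgeR adjusted p = 0.000192), and both tissues were highest in young ethanol. With DESeq2 that call was lost. Drd1, a dopamine receptor, reached 29.9, 42.2, 40.6 and 30.6 CPM against 22.1, 16.8, 13.8 and 15.8 (log2 0.95, SE 0.207, edgeR adjusted p = 0.00236). Inpp4b, a phosphoinositide phosphatase, had only 10.3 to 15.8 CPM against 1.97 to 9.19, a log2 difference of 1.17. Its call was lost when any library was left out (log2 0.91 to 1.41). The orexin receptor gene Hcrtr2 did not pass the filter, with 2.81, 0, 2.26 and 1.18 CPM in layer 6b spots, each at or under the level of 3 UMIs. Its level in these spots was therefore not measurable at this depth.

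The remaining markers were shared with white matter. Lpar1, a lysophosphatidic acid receptor also found in oligodendrocytes, reached 71.1, 39.1, 54.2 and 36.5 CPM, above the 16.4 to 20.0 of layer 6 (log2 1.49, SE 0.177, edgeR adjusted p = 1.22e-06) but below the 183 to 259 of white matter (-2.44). Svil, an actin-binding protein, was 2.21 above layer 6 (SE 0.383, edgeR adjusted p = 0.0002) and -0.72 against white matter (adjusted p = 0.0566). Clic5, a chloride intracellular channel protein, was 1.93 above layer 6 (SE 0.474, edgeR adjusted p = 0.00709), which fell to 1.64 and did not pass without young vehicle. Tmem163, a zinc-binding vesicle membrane protein, reached 91.7, 90.6, 79.0 and 75.3 CPM against 29.0 to 35.5 in layer 6 (log2 1.33, edgeR adjusted p = 0.000191). Its white matter levels of 74.6, 12.1, 54.1 and 22.5 CPM differed several-fold between libraries, being high in both vehicle sections, and the difference of 0.78 from white matter did not pass without young ethanol (0.45) or without aged ethanol (0.60). For these 4 genes the part played by white matter within the spots was not tested.

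**Figure D2:**
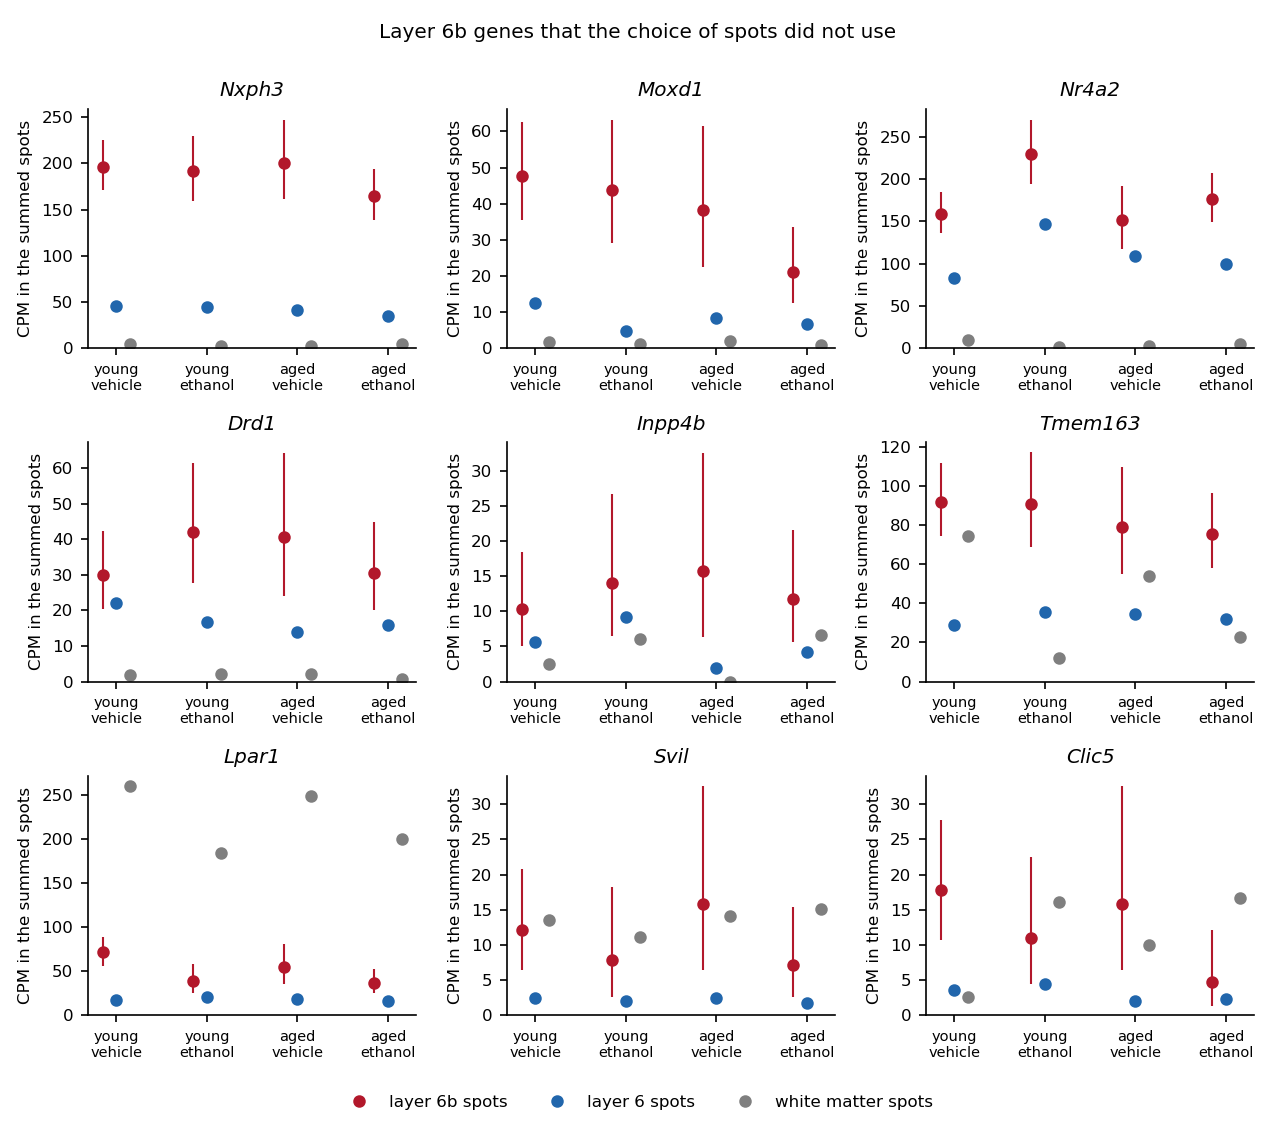
Level of 9 layer 6b markers that the choice of spots did not use (y axis, CPM in the summed spots of a library; x axis, libraries; red, layer 6b spots with 95% counting intervals; blue, layer 6 spots; grey, white matter spots). Nxph3 lay between 165 and 201 CPM in layer 6b spots and between 34.8 and 45.2 in layer 6 spots, while Lpar1 was highest in white matter.

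In all, 189 genes were called higher than in both tissues and were higher in each of the 4 libraries. Each comparison tested 10227 genes, with 5.6% called higher than layer 6 and 29.9% higher than white matter. The 12 with the largest smaller difference included Nxph3 and Moxd1. Several of the others were so low in both neighbours that they reached the test through the layer 6b sums, so their levels are given as a description with no p. Tmem40, which encodes a transmembrane protein, reached 14.0, 17.2, 11.3 and 10.6 CPM against 0.598 to 1.64 in layer 6, and 3 of the 4 white matter sums held no UMI. Prph, the intermediate filament peripherin, reached 17.8, 28.1, 24.8 and 29.4 CPM against 0.985 to 3.59, again with no UMI in 3 white matter sums. Tnmd, the membrane glycoprotein tenomodulin, reached 20.6, 14.1, 22.6 and 15.3 CPM against 0.799 to 2.69. These 3 genes were near absent from both neighbours. They were picked for large differences and for being higher in each library, so their separation was largely built into the choice. Mapk13, a stress-activated kinase, behaved alike, with 11.2, 15.6, 15.8 and 14.1 CPM against 0.985 to 2.40 in layer 6 and 0 in all 4 white matter sums.

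Ly6g6e, a Ly6-family surface protein, reached 28.1, 26.6, 29.3 and 14.1 CPM against 1.31 to 2.80 in layer 6. Sema5b, a semaphorin that guides axons, reached 72.0, 96.9, 92.5 and 58.8 CPM against 18.4 to 25.4 (log2 1.72, SE 0.16, edgeR adjusted p = 3.28e-08) and was 3.88 above white matter (2.84 with 300 spots). Prss12, the synaptic protease neurotrypsin, reached 58.0, 43.7, 38.4 and 45.9 CPM against 12.0 to 16.1 (log2 1.68). These 3 genes were picked in the same way, so their separation from the neighbours describes the choice. Pcsk5, a proprotein convertase, was 1.84 above layer 6 (1.13 with 300 spots) and 2.80 above white matter, and Rai14, an actin-associated ankyrin-repeat protein, was 1.69 and 3.43 above them. Ntsr1, the neurotensin receptor that also marks layer 6 corticothalamic neurons, reached 15.0, 12.5, 15.8 and 15.3 CPM against 8.08, 3.19, 5.42 and 1.64 (log2 1.62). Low in both neighbours, Ntsr1 too reached the test through the layer 6b sums and is given as a description. Without aged ethanol it was 1.26 higher and its call was lost.

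Relatives of the 3 scored markers differed in direction. Among CCN matricellular proteins Ccn3 reached 150, 202, 117 and 195 CPM against 78.1, 59.5, 85.2 and 85.7 in layer 6 (log2 1.08, SE 0.145, edgeR adjusted p = 6.19e-06) and was 4.51 above white matter. Ccn1 was 0.54 above layer 6 without passing (edgeR adjusted p = 0.484), Ccn4 was too low to test at 6.25 to 9.03 CPM, and no UMI of Ccn5 or Ccn6 was found in the spots. Of the neurexins that neurexophilins bind, Nrxn3 was lower by -0.58 (edgeR adjusted p = 0.00167, and -0.51 without passing when aged ethanol was left out), while Nrxn2 at -0.28 did not pass. Of the other complexins, Cplx2 reached 265, 253, 230 and 259 CPM against 343, 410, 337 and 379 in layer 6, without overlap (log2 -0.58, SE 0.108, edgeR adjusted p = 0.000498). Its call was lost with 300 spots. Cplx1 was lower by -0.43 (adjusted p = 0.00802), a call lost without young ethanol (-0.29) or aged ethanol (-0.43).

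Deep-layer genes were mixed. Of 9 layer 6 genes tested that had not chosen the layer 6 spots, 4 were higher and 1 lower, with a median of 0.43. Hs3st4, a heparan sulfate sulfotransferase, reached 209, 228, 232 and 168 CPM against 88.0 to 111 (log2 1.03, SE 0.1, edgeR adjusted p = 5.7e-08), and Sla, an adaptor of immune-type receptor signalling, was 1.42 higher. Tle4, a transcriptional co-repressor, was 0.68 higher, whereas Crym, a thyroid hormone-binding protein, was lower by -0.69. Tbr1 was 0.33 higher, against a layer 6 set in which 275 of 450 spots held at least 3 Tbr1 UMIs. Foxp2, which helped choose the layer 6 spots and so carries no test here, was detected in 48 of 150 layer 6b spots and 316 of 450 layer 6 spots. Of 7 upper-layer genes 4 were lower and 1 was higher, with a median of -0.85, where 4.48% of all genes were lower and 5.6% higher. Calb1, the calcium-binding protein calbindin, reached 24.3, 40.6, 31.6 and 47.1 CPM against 70.7 to 104 (log2 -1.41, edgeR adjusted p = 2.09e-06). Lamp5 was lower by -1.30 and Rasgrf2 by -1.28, both in each library. With 300 spots Calb1 was at -0.75 and Rasgrf2 at -0.52.

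The lowest differences from layer 6 included the peptide gene Cartpt, with 3.74, 9.37, 11.3 and 8.24 CPM against 39.5, 28.4, 21.7 and 25.6 (log2 -2.04, SE 0.345, edgeR adjusted p = 0.000154). Plk5, a polo-like kinase, was at -2.07, Phactr2, a regulator of protein phosphatase, at -2.21, and the unnamed transcript A830036E02Rik at -2.40. The last pair rested on 8 and 7 UMIs over the 150 spots. With 300 spots the differences were -1.03 for Cartpt, -0.997 for Plk5, -0.71 for Phactr2 and -1.22 for A830036E02Rik. Ccdc3 was at -2.21, which was -0.57 and did not pass with 300 spots. Calb2, the calcium-binding protein calretinin, was at -2.79, with 3.12 to 8.42 CPM against 20.9, 101, 16.7 and 64.7. The high layer 6 values were those of both ethanol libraries, and against layer 6 spots with at least 3 Tbr1 UMIs the difference was -0.75 and did not pass.

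Striatal genes depended on the same choice. Against all layer 6 spots 4 of 5 were lower, where 4.48% of all genes were lower. Among the 4 were Penk, lower by -1.69, Rgs9 by -0.94 and Ppp1r1b by -0.64. Against layer 6 spots with at least 3 Tbr1 UMIs the values of Penk, Rgs9 and Ppp1r1b were -0.05, 0.11 and -0.07, and none of these 3 passed with edgeR. With 300 spots Penk was at -1.06 and Rgs9, at -0.31, did not pass. Without young vehicle 1 of the 5 was lower and without aged ethanol 2.

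Of 19 receptors for neuromodulators tested, 6 were higher than in layer 6 and 2 lower, with a median of 0.01, where 5.6% of all genes were higher and 4.48% lower. Beside Ntsr1 and Drd1, the serotonin receptor gene Htr2a reached 39.3, 78.1, 31.6 and 45.9 CPM against 14.8 to 23.3 (log2 1.15, SE 0.228, edgeR adjusted p = 0.00092). The muscarinic receptor gene Chrm3 reached 36.5, 45.3, 58.7 and 48.2 CPM against 17.1 to 26.4 (log2 1.12). The adrenergic receptor gene Adra2a was 1.11 higher and the nicotinic subunit gene Chrna4, at 51.9 to 70.3 CPM against 26.0 to 32.0, was 1.02 higher. Each of these 4 genes was above every layer 6 sum, and the share of all genes that were so was not counted. Adra2c, a related adrenergic receptor, was lower by -1.26, which was -0.84 without young vehicle and -0.42 with 300 spots and passed in neither.

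Transmitter receptor subunits differed one by one. Of 11 GABA-A subunits tested, Gabra5 was higher, at 133, 120, 108 and 85.9 CPM against 45.6 to 60.1 (log2 1.05, SE 0.119, edgeR adjusted p = 6.76e-07). Gabra2 was lower, at 4.51 to 14.1 CPM against 27.2 to 38.4 (log2 -1.73, SE 0.27, edgeR adjusted p = 5.61e-05, and -0.81 with 300 spots), and Gabrd was lower by -0.74. In each case all 4 libraries agreed in direction. Of 13 ionotropic glutamate receptor genes 4 were lower, among them Gria4 by -1.08 and Gria1 by -0.59, and 2 kainate receptor genes were higher. The shares over all genes were 4.48% lower and 5.6% higher. Grik3 was 0.75 higher and Grik4 0.77, but neither passed without aged ethanol (0.52 and 0.81), when 3 genes of the list were lower. Grik4 also did not pass without young ethanol (0.65) or against layer 6 spots with at least 3 Tbr1 UMIs.

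Release and scaffold genes were close to layer 6 or below it. Of 18 presynaptic genes 4 were lower and 1 higher, with a median of -0.02, and 2 were lower without aged ethanol. Over all genes 4.48% were lower and 5.6% higher. Vamp1, a vesicle SNARE, reached 15.8 to 35.3 CPM against 56.0 to 83.1 (log2 -1.33, edgeR adjusted p = 4.02e-06). Of 16 postsynaptic genes 6 were lower, with a median of -0.32, and 3 were lower without young vehicle. Camk2a, the calcium/calmodulin kinase of excitatory synapses, was lower by -0.83 and Nrgn, the calmodulin-binding neurogranin, by -0.58, each in all 4 libraries.

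Interneuron genes were lower for 7 of 12, with a median of -0.64, where 4.48% of all genes were lower. Pvalb, which marks fast-spiking basket cells, reached 50.5 to 65.4 CPM against 97.0 to 158 (log2 -1.33, SE 0.15, edgeR adjusted p = 6.69e-07), and Gad1, the main GABA-synthesising enzyme, was lower by -0.70. Sst at 0.10 and Npy at 0.37 did not pass. Only 3 of the 12 were lower without young vehicle, or against layer 6 spots with at least 3 Tbr1 UMIs. In summed spots fewer cells of a type and less RNA per cell cannot be told apart.

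Myelin and oligodendrocyte genes stood between the neighbours. All 15 were higher than in layer 6, against 5.6% of all genes, with a median of 1.41, and this held under every alternative tried. The list's summed level was 16106, 9794, 13385 and 10905 CPM in the layer 6b spots, 3673 to 5369 in layer 6 spots and 64819 to 76412 in white matter spots. Young vehicle was the highest and young ethanol the lowest of the layer 6b sums. Apod, a lipid-binding apolipoprotein, was 1.67 above layer 6, Ermn, a myelin cytoskeletal protein, 1.65, and Enpp6, which marks newly forming oligodendrocytes, 2.28. Of 8 precursor and differentiation genes 5 were higher, with a median of 0.93. The summed microglia list spanned 632 to 860 CPM against 553 to 662 in layer 6, with a median difference of 0.22, and the astrocyte list 2600 to 2762 against 2391 to 2591, with a median difference of -0.13 and 1 of 10 genes called. The astrocyte filament gene Gfap, of a list of reactive-astrocyte genes, was 0.96 higher (edgeR adjusted p = 0.000819, and 0.153 without the library as a block), and the small heat shock protein Cryab, abundant in oligodendrocytes, was 1.29 higher.

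Mitochondrially encoded genes were lower for 12 of 13, with a median of -0.50, where 4.48% of all genes were lower. Their share of UMIs was 7.91%, 10.4%, 8.75% and 12.7% in the layer 6b spots, 12.9%, 12.2%, 12.0% and 16.3% in layer 6 spots and 8.90%, 9.67%, 8.54% and 11.4% in white matter spots. Within each library the layer 6b share was below that of layer 6, and in both tissues it was highest in aged ethanol. When the library was not kept as a block, 4 of the 13 were lower. The part of depth and of myelin content in this difference was not tested.

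**Figure D3:**
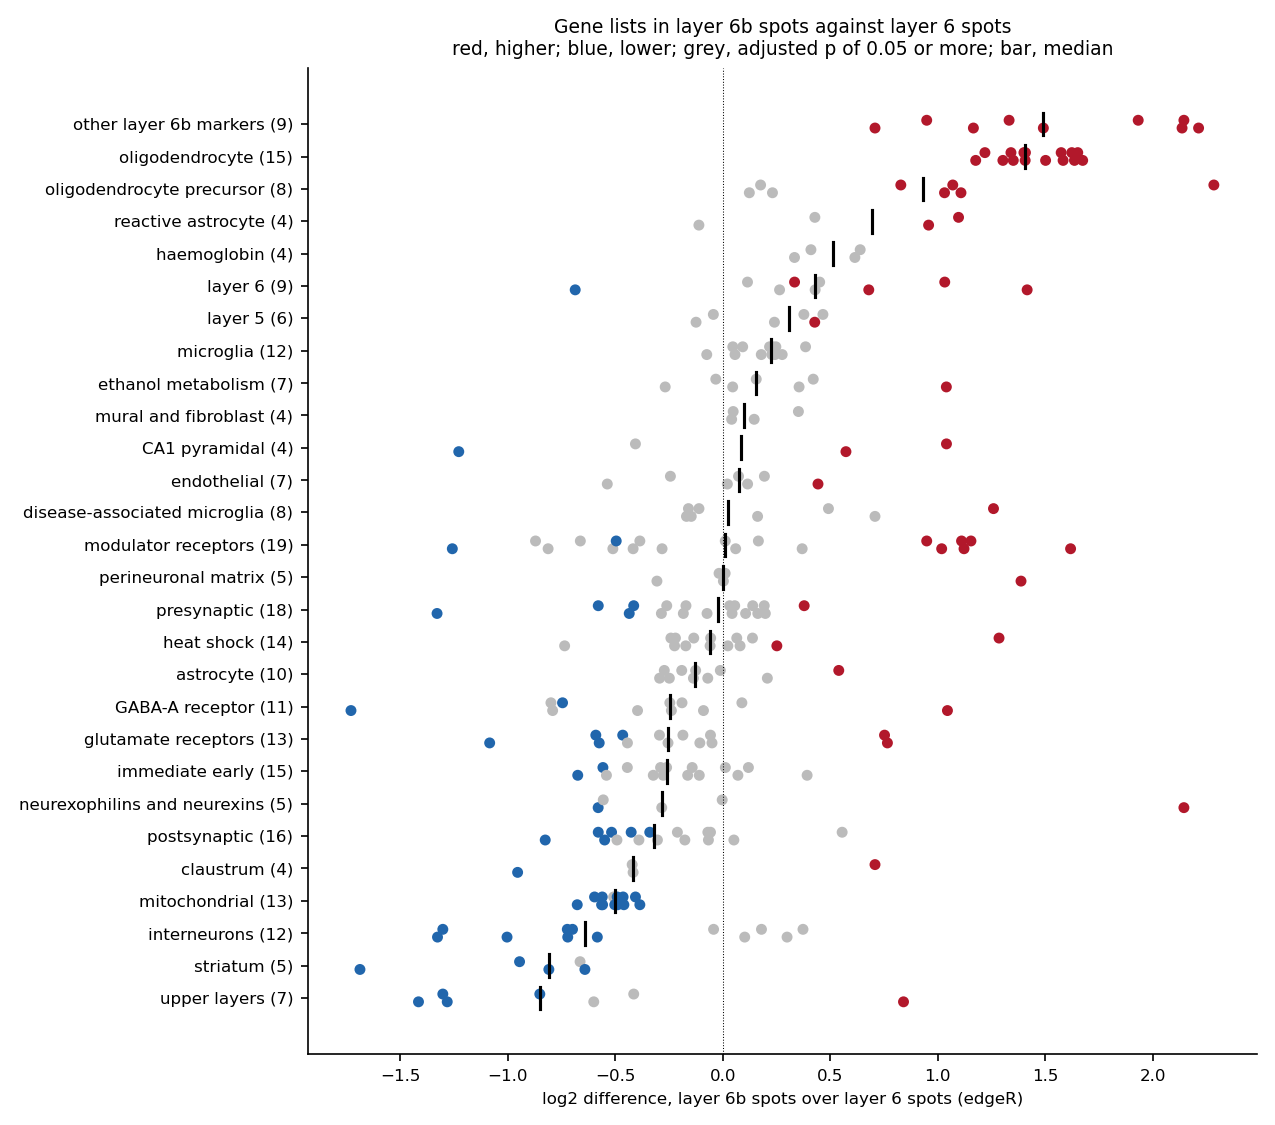
Log2 difference of layer 6b spots over layer 6 spots for the tested genes of each list with at least 4 tested genes (x axis, edgeR log2 difference; rows, lists with the number tested; red, higher; blue, lower; grey, not passing; bars, medians). The other layer 6b markers (median 1.49) and the oligodendrocyte genes (1.41) lie to the right, and mitochondrial genes (-0.50) cluster to the left.

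The 6 genes lowest against white matter were Wnt3, A2m, Hipk2, Agt, C4b and Serpina3n. The first 3 had at most 4 UMIs each over the 150 spots, so no fold is given for them. Agt, the angiotensin precursor made by astrocytes, was at -4.29 (-3.10 with 300 spots). Serpina3n, a reactive-astrocyte serpin, was at -3.90 (-2.88 without young ethanol and -4.65 without young vehicle). C4b, complement component of the classical pathway, was at -4.21 (SE 0.238, edgeR adjusted p = 3.18e-14). In the layer 6b spots C4b reached 9.35, 68.7, 18.1 and 55.3 CPM, in layer 6 spots 11.1, 21.6, 6.90 and 23.3, and in white matter spots 107, 1391, 160 and 759. It was higher in both ethanol libraries than in both vehicle libraries in all 3 tissues, with 1 library a group and so without a test.

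Single spots varied in content. The genes most variable beyond counting noise among the 2818 ranked were the haemoglobin genes Hba-a1, Hbb-bs, Hba-a2 and Hbb-bt, the thyroid hormone carrier Ttr of the choroid plexus, the interneuron peptides Npy and Sst, and the imprinted gene Nnat. A few spots held much of this signal. In aged ethanol 1 spot held 515 of 643 Hbb-bs UMIs, and 1 held 171 of 354 Npy UMIs. In aged vehicle 3 spots held 91.6% of the 1218 Ttr UMIs. More than 100 Ttr UMIs were found in those 3 spots and in 1 spot of aged ethanol.

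Myelin content ranged widely as well. The oligodendrocyte list took 16.8 to 479 UMIs per 10000, with medians of 144, 104, 106 and 112. It was higher in spots with fewer UMIs in every library, with Spearman correlations of -0.45, -0.67, -0.44 and -0.56 over 44, 35, 28 and 43 spots. Spots of a library share its sequencing and section, and both measures share the spot's total, so this is a description. Nxph3 ranged from 0 to 5.64 UMIs per 10000, with a median of 1.77, and was detected in 142 of 150 spots. Its correlations with the oligodendrocyte list were 0.02, 0.01, -0.30 and 0.23, with no common sign. Nr4a2 was detected in 132 spots, Moxd1 in 67 and Gad1 in 102.

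**Figure D4:**
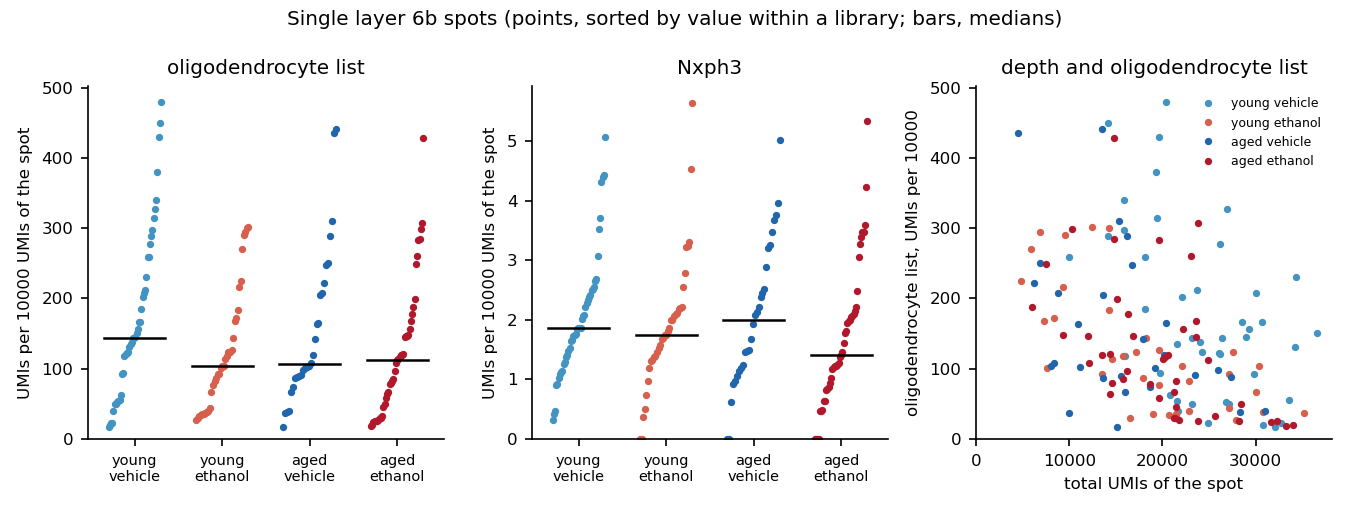
Values of single layer 6b spots: oligodendrocyte list and Nxph3 by library (y axes, UMIs per 10000 UMIs of the spot; points sorted by value within a library; bars, medians), and the oligodendrocyte list against total UMIs (x axis). The list spans 16.8 to 479 and falls with depth, while Nxph3 spans 0 to 5.64.

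The libraries were then set against each other within the layer 6b spots. With 1 library a group there is no test, and a gene was counted as past a rule of size when the 2 CPM values differed by a factor of 2 or more and the larger UMI count was 50 or above. Ratios carry 95% intervals for counting error. Because the rule asks for a number of UMIs, it favours genes that are higher in the library with more UMIs, and in all 4 comparisons most genes past it were higher there. The split between higher and lower genes is therefore no measure of direction. Depth and RNA content differed between the libraries, and ribosomal RNA carry-over transcripts took 0.105%, 0.137%, 0.0535% and 0.330% of the UMIs of the layer 6b spots. Of the other layer 6b markers 5, 3, 5 and 3 had enough UMIs in the 4 comparisons, and their median log2 ratios were -0.03 (young ethanol over young vehicle), -0.07 (aged ethanol over aged vehicle), -0.21 (aged over young, vehicle) and -0.27 (aged over young, ethanol). None of those genes was past the rule of size.

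In young ethanol against young vehicle, 47 of 4024 genes were past the rule (1.17%), 7 higher (0.174%) and 40 lower (0.994%). In layer 6 spots the share was 1.07%. With 300 spots 21 were higher and 30 lower, and 22 of these were among the 47. Among the 7 were the striatal genes Penk and Ppp1r1b, and Tac1. Penk, which encodes the enkephalin precursor, had 139 against 54 UMIs, a ratio of 4.30 (3.12 to 6.00), while in layer 6 spots its log2 ratio was -0.36. Tac1, the substance P precursor, had 50 against 30 (2.78). The Penk UMIs were spread over 22 of 35 spots in young ethanol and 13 of 44 in young vehicle, and the striatal list summed to 164, 486, 181 and 255 CPM over the 4 libraries. The higher genes also included 3 haemoglobin genes, with Hbb-bs at 2.10 (1.80 with a score without Cplx3).

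The lower genes of that comparison included 4 of 15 of the oligodendrocyte list, whose median was -0.68 in layer 6b spots and 0.07 in layer 6 spots. Mal, a myelin proteolipid, had 189 against 687 UMIs, a ratio of 0.46 (0.389 to 0.541), with a log2 ratio of -0.06 in layer 6. Cldn11, the tight junction protein of myelin, had 114 against 409 (0.466) and Mog, a surface protein of myelin, 82 against 279 (0.491). The summed oligodendrocyte level of the spots was 9794 CPM in young ethanol and 16106 in young vehicle, and the part of the spots' white matter content in these ratios was not tested. Arc, an immediate early gene of synaptic plasticity, had 30 against 140 UMIs (0.358, 0.233 to 0.534), and its log2 ratio in layer 6 spots was also low, at -1.09. Marcksl1 had 9 against 59 UMIs (0.255), Dusp1, a MAP kinase phosphatase, 11 against 54 (0.34) and Ndufaf5, an assembly factor of complex I, 12 against 56 (0.358). With 300 spots the last 3 ratios were 0.542, 0.65 and 0.776, none past the rule.

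In aged ethanol against aged vehicle, 39 of 3169 genes were past the rule (1.23%), 30 higher (0.947%) and 9 lower (0.284%), against 0.966% in layer 6 spots. Thus 76.9% of them were higher, and 88.9% of 45 with totals that omitted mitochondrial genes. With 300 spots 47 genes were past the rule, 10 of them among the 39. The ribosomal RNA carry-over transcript Gm42418 had 2587 against 207 UMIs (6.52, 5.65 to 7.54) and Lars2, a mitochondrial leucyl-tRNA synthetase listed here with the carry-over transcripts, 204 against 27 (3.94). The Gm42418 ratio was 3.44 with 300 spots and 9.36 without the 4 spots over 100 Ttr UMIs. The neuronal noncoding RNA Bc1 had 9203 against 1471 (3.26, 3.09 to 3.45) and mt-Atp8 327 against 50 (3.41). All 4 were also higher in layer 6 spots, by log2 ratios of 1.72, 2.09, 1.58 and 1.35, along with the larger mitochondrial share of that library. Grin2b, an NMDA receptor subunit, had 86 against 18 UMIs (2.49, 1.49 to 4.40) and Camk2a 188 against 40 (2.45, 1.73 to 3.54). Their log2 ratios in layer 6 spots were 0.14 and 0.92. With 300 spots the Grin2b ratio of the layer 6b spots was 1.87, under the rule. Nr4a1, an immediate early nuclear receptor, had 92 against 23 UMIs, a log2 ratio of 1.06 that was 0.87 without the spots over 100 Ttr UMIs. The myelin genes Opalin (0.426), Mog (0.492) and the myelin lipid enzyme gene Fa2h (0.438) were lower, as was the tetraspanin Cd9 (0.435). With 300 spots Opalin was at 0.586, Mog at 0.715 and Fa2h at 0.718, and Cd9 was at 0.531 with a score without Cplx3, so these 4 ratios did not stay past the rule. Ttr had 240 against 1218 UMIs (0.103), a log2 ratio of -3.28 that was -0.80 without those 4 spots.

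In aged against young vehicle, 47 of 4020 genes were past the rule (1.17%), 6 higher (0.149%) and 41 lower (1.02%), against 0.34% in layer 6 spots. With at least 100 UMIs 4 were higher and 3 lower, and with 300 spots 16 and 28. Of the genes past the rule with 300 spots, 10 were among the 47. Ttr had 1218 against 144 UMIs (20.4, 17.2 to 24.4), a log2 ratio of 4.35 that was 1.06 without the 3 spots over 100 Ttr UMIs. All 4 haemoglobin genes were higher, with Hba-a1 at 4.66 (3.75 to 5.81) and Hbb-bs at 3.55 (3.12 to 4.04). Without those spots their log2 ratios fell from 2.22 to 1.55 and from 1.83 to 1.29. With a score without Cplx3 they were 1.22 and 1.09. The lowest genes rested on few UMIs in the shallower aged library. Jdp2, a repressor of AP-1, had 5 against 50 UMIs (0.241, 0.0751 to 0.601) and Cdkn1a, the cell cycle inhibitor, 6 against 57 (0.254). Rab31, a trafficking GTPase, had 8 against 68 (0.284) and Rhot2, a mitochondrial transport GTPase, 10 against 72 (0.335). With 300 spots Jdp2 was at 0.579 and Rhot2 at 0.865, both outside the rule.

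In aged against young ethanol, 11 of 3205 genes were past the rule (0.343%), 10 higher (0.312%) and 1 lower (0.0312%), against 0.818% in layer 6 spots. With 300 spots 22 genes were past it, 2 of them among the 11. Pam, the enzyme that amidates neuropeptides, had 52 against 9 UMIs (4.35, 2.12 to 10.0) with a log2 ratio of 0.27 in layer 6 spots. Grin2b had 86 against 29 (2.23, 1.45 to 3.53), Gprc5b, an orphan receptor, 75 against 25 (2.26) and Vtn, the matrix protein vitronectin, 61 against 21 (2.19). With 300 spots Pam was at 1.42, Grin2b at 1.49, Gprc5b at 1.44 and Vtn at 1.60, none past the rule. The immediate early genes Arc (82 against 30, 2.06) and Egr4 (61 against 22, 2.09) were also past the rule in these spots, and their layer 6 log2 ratios were 0.85 and 1.40. Egr4 was at 1.90, under the rule, with 300 spots. Ttr was at 3.48 here, a log2 ratio of 1.80 that was 0.99 without the spot over 100 Ttr UMIs and -0.19 with 300 spots. Penk was the lower gene, with 75 against 139 UMIs (0.406, 0.303 to 0.542). The comparisons share libraries, so the low Penk here and the high Penk above both rest on the young ethanol spots.

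**Figure D5:**
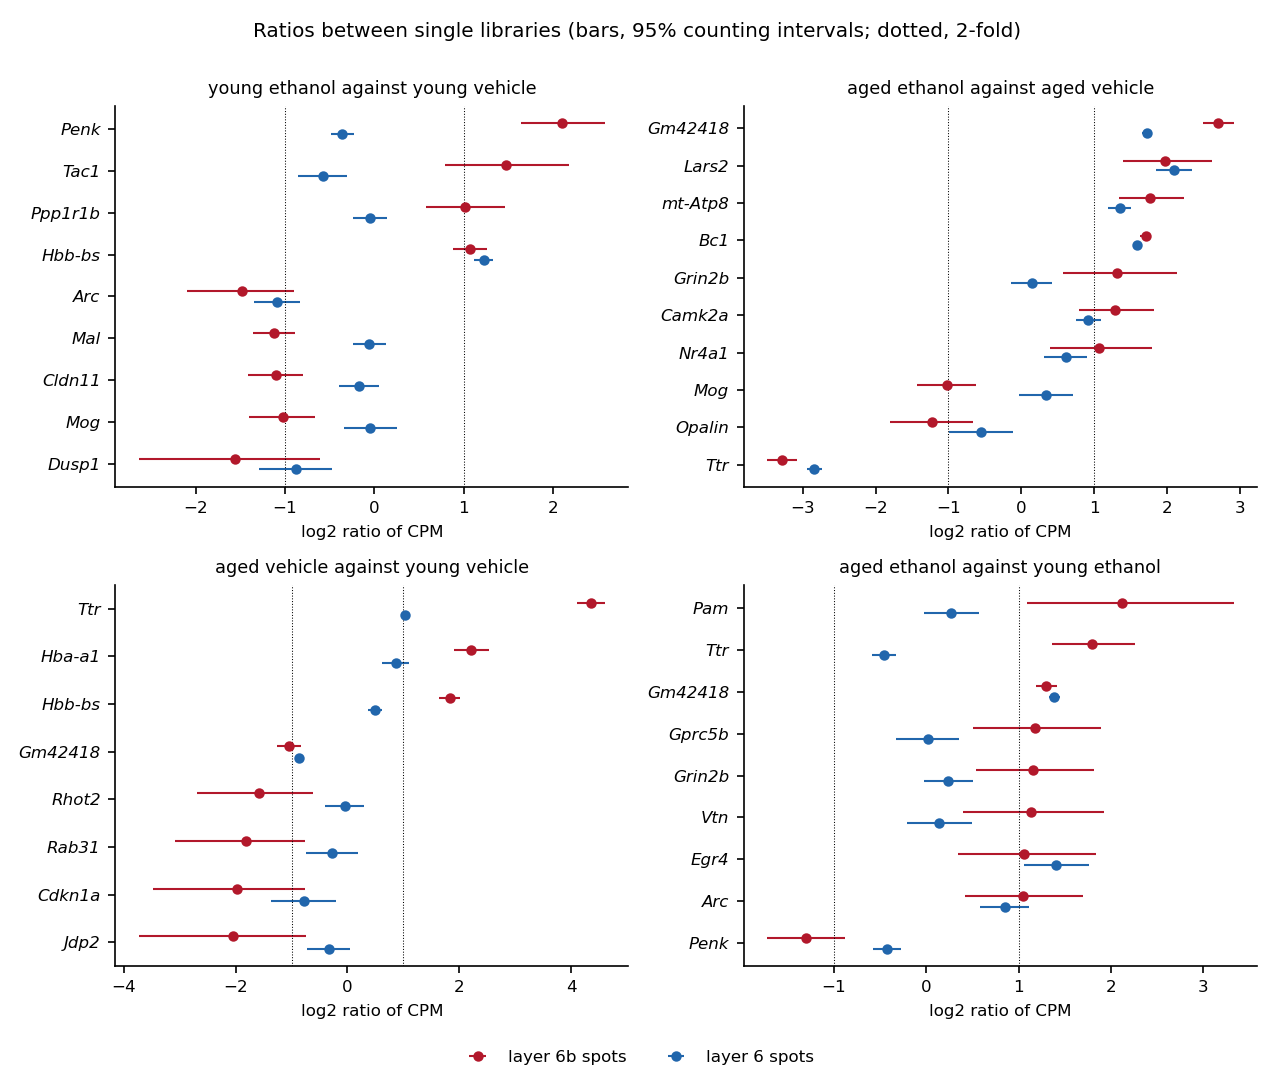
Log2 ratio of CPM between single libraries for named genes in layer 6b spots (red) and layer 6 spots (blue), with 95% counting intervals (x axis, log2 ratio; dotted lines, 2-fold). Penk was 2.10 in layer 6b spots and -0.36 in layer 6 spots of young ethanol over young vehicle, whereas Gm42418 was high in both tissues of aged ethanol.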

How the data were processed

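Gene by spot UMI counts of 4 Visium libraries, deposited by the authors as 1 matrix of 32285 genes and 11064 spots, were used as given. The matrix header names Space Ranger 1.3.1, and Space Ranger 2.0.0 and mm10 are named per the submitters' processing notes. Spots were assigned to libraries by the barcode letter that the labels give. The spot rule, the gene lists and the named genes were chosen with earlier results of these data known. Visium areas share barcode lists (706 barcodes occurred in 1 library, 1290 in 2, 986 in 3 and 1205 in 4), so barcodes were kept apart by library. No doublet caller was run on spots.

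Layer 6 spots needed at least 500 UMIs, 3 Slc17a7 UMIs, at least 3 times as many Slc17a7 as Slc17a6 UMIs and at least 2 of Foxp2, Syt6 and Rprm. Counts were summed per tissue and library and tested with edgeR 4.0.16 in R 4.3.3 (TMM factors, filterByExpr, glmQLFit and glmQLFTest, library as block, adjusted p under 0.05), leaving the genes that chose the spots out of the calls. DESeq2 1.42.0 was an alternative. The test across genes was run on simulated counts with the same dispersion for every gene, in which only well-counted genes were changed. A share of 0.82 of the genes changed 1.5-fold was called, and 0.0011 of unchanged genes. It could not check low counts, spread that differs by gene or the choice of spots. Between libraries, ratios of CPM with exact conditional binomial 95% intervals were used, with 3 UMIs in place of 0. Python 3.11.15, NumPy 2.4.6, SciPy 1.17.1, pandas 2.3.3 and Matplotlib 3.10.9 were used. Named genes were the 12 highest over both tissues, the 6 lowest against each, all members of the marker families, up to 4 called genes of each other list, the 4 highest and 4 lowest and list genes past the rule of size in each comparison of libraries, and the 8 most variable among spots. Some genes that the rule names are not reported here. Of 323 listed genes, 322 had 1 identifier. Replicate numbers pair no samples here, since each group is 1 library and the block is the library itself.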

Additional observations from a re-analysis of the deposited data

Results flagged for a closer look

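Gm42418, a transcript read as ribosomal RNA carry-over, was lower in aged than in young layer 6b spots under vehicle (log2 ratio -1.039) and higher under ethanol (1.299). It stood out because both ratios were past the rule of size in opposite directions at the same contrast of ages. With 300 spots neither was past the rule (ratios of 0.553 and 1.70), and with a score without Cplx3 the vehicle ratio was 0.581. The difference between the 2 ratios was not tested, since each rests on 1 library a group. In layer 6 spots the same ratios were -0.86 and 1.39.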

How the results depend on the processing

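Under every alternative tried, all 15 oligodendrocyte genes stayed above layer 6, and 6 to 9 of the tested layer 6b markers did. Against layer 6 the count of called genes was 656 with DESeq2 (454 higher, 202 lower) and 663 to 868 when 1 library was left out, the lowest without aged ethanol. Against white matter it was 5486 to 5991 when 1 library was left out. With no replicate block, that is without the library as a block, the counts were 783 and 6089. Of 88 named genes called against layer 6, 38 lost the call in at least 1 alternative, and of 83 against white matter, 13. Against layer 6 spots with at least 3 Tbr1 UMIs, Rgs9 was 0.11. With 300 spots, the differences from white matter turned to 0.86 for Gabra2, 0.63 for Cux2, 0.014 for mt-Nd1, 0.11 for mt-Co2 and 0.028 for mt-Nd3, and Ttr of aged over young ethanol to -0.19. Genes past the rule of size, in the order young ethanol over young vehicle, aged ethanol over aged vehicle, aged over young vehicle, aged over young ethanol, numbered 268, 291, 322 and 170 with at least 20 UMIs and 12, 12, 7 and 3 with at least 100 UMIs, since the minimum sets how many genes are looked at. Scoring without Cplx3 gave 27, 31 and 20 for young ethanol over young vehicle, aged over young vehicle and aged over young ethanol, and 300 spots gave 22 for aged over young ethanol. The cause of these last changes was not tested. The share of members in each library stayed within its interval throughout. Leaving out the spots over 100 Ttr UMIs, requiring Tbr1 in layer 6 spots and requiring Nxph4 or Cplx3 were chosen after seeing the data.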
